A study of Mus musculus with 13 samples.

Results

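The Iroquois genes of the mouse are 6 homeobox genes in 2 clusters of 3, and they are described here in wild-type mouse embryonic stem cells (mESCs) by the ChIP-seq peaks of AEBP2 and of the histone mark H3K27me3. They were chosen by name, at their mm9 positions in GENCODE vM1, among 22367 protein-coding genes. Irx1, Irx2 and Irx4 lie on chromosome 13, and Irx3, Irx5 and Irx6 on chromosome 8. For each gene the peaks within 1 kb of the start site and over the gene body were taken from each of 5 deposited lists, as were the peaks between the genes of a cluster.

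The 5 lists came from wild-type cells that the labels name a 129/1 XY embryonic stem cell line. They hold endogenous AEBP2 in 2 replicates, H3K27me3 in 2 replicates and FS2-AEBP2 in 1 sample, which is AEBP2 with an N-terminal Flag-StrepII tag expressed from a plasmid. For the tagged protein the methods name E14 mESCs and a ChIP protocol with blocked beads, so antibody, line, expression and protocol cannot be told apart in its comparison with endogenous AEBP2. The label of the H3K27 antibody gives no methylation state and the methods give H3K27me3. Nothing says that replicates came from separate cultures, and which H3K27me3 list is replicate 1 is uncertain, because its file name and its sample record carry opposite numbers. SUZ12, input and AEBP2 KO samples were not analysed here.

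Iroquois proteins are transcription factors of the TALE class, homeodomain proteins with a loop extension of a few residues, and they pattern the neural tube, heart, limb and retina. The members of the 2 clusters pair as relatives, Irx1 with Irx3, Irx2 with Irx5 and Irx4 with Irx6. In mESCs, developmental regulators of this kind are classical targets of Polycomb repressive complex 2 (PRC2), which methylates lysine 27 of histone H3 at unmethylated CpG islands, and AEBP2 is an accessory subunit of PRC2.

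The 250 bases before each start site are shown because the members differ in their CpGs, with the fewest at Irx6. They were read from the mm9 genome, 5′ to 3′ on the strand of the gene, with every CpG in capitals. None of these bases lies in an annotated UTR.
Irx1 (chr13:72101172-72101421, minus strand): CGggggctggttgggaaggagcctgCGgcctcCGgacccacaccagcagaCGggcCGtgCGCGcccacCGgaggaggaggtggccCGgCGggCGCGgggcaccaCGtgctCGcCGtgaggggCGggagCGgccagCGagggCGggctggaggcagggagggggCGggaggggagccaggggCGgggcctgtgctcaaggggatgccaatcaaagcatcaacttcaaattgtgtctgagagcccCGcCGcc
Irx2 (chr13:72765995-72766244, plus strand): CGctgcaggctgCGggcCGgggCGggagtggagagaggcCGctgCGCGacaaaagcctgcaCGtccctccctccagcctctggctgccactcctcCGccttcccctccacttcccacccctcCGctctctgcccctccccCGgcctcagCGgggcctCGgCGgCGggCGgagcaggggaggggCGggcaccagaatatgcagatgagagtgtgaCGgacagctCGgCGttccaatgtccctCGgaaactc
Irx4 (chr13:73397695-73397944, plus strand): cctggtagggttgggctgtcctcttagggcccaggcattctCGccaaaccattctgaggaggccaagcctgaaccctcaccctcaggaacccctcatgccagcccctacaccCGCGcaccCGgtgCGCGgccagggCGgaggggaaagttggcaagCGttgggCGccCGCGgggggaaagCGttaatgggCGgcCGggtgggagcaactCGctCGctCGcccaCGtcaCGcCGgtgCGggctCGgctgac
Irx3 (chr8:94325554-94325803, minus strand): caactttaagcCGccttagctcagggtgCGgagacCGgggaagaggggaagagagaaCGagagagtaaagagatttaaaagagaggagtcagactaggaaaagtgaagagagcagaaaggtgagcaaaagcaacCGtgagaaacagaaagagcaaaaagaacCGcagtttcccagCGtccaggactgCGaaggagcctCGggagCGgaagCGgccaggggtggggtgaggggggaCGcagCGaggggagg
Irx5 (chr8:94881445-94881694, plus strand): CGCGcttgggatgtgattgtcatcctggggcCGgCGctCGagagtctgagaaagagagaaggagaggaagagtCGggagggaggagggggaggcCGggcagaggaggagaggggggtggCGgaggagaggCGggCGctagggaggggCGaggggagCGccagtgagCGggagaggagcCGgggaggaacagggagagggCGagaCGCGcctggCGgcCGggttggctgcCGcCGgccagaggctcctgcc
Irx6 (chr8:95197938-95198187, plus strand): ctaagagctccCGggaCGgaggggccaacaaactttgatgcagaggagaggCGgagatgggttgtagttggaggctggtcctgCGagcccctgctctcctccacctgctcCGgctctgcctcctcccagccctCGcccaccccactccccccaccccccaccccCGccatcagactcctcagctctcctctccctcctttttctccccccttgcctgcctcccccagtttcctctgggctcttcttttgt

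The stretches held 23 CpGs at Irx1, 21 at Irx2, 22 at Irx4, 13 at Irx3, 21 at Irx5 and 7 at Irx6, against a median of 8 over the same 250 bases of all 22367 protein-coding genes. Irx6 was thus the one member below that median, and 44.2% of genes had fewer CpGs than it, against 84.8% for Irx1. The start site of each of the 6 genes lay inside a CpG-island-like region, built here by merging 500-bp windows whose GC content reached 55% and whose CpGs reached 0.65 of the number expected from base composition. The share of all protein-coding genes with a start site inside such a region was not computed, so this count has no background. The region at Irx3 was 3070 bp long, longer than 99.4% of the 20696 such regions of the genome, and that at Irx6 was 1010 bp, longer than 50.7%.

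Every member had a peak of every list within 1 kb of its start site. Of the 6 genes, 6 had AEBP2 peaks in replicate 1, where 9.08% of all protein-coding genes did, 6 in replicate 2 (22.3% of all genes) and 6 in both replicates (8.44%). All 6 had an FS2-AEBP2 peak (6.53% of all genes). H3K27me3 was likewise found at 6 of 6 in replicate 1 (17%), replicate 2 (17.7%) and both (15%). Peaks of all 5 lists stood at 6 of 6 members and at 4.57% of all protein-coding genes. Over the gene bodies the count was also 6 of 6 in each list, against 10.3% and 24.9% of all genes in AEBP2 replicates 1 and 2, 7.69% for FS2-AEBP2, and 20.8% and 20.2% in H3K27me3 replicates 1 and 2. That count needed an overlap of only 1 bp. With at least 50% of the gene body covered, 5 members remained in AEBP2 replicate 1, 4 for FS2-AEBP2 and 6 in each other list. The share of all genes at that limit was not computed. No test was made of these counts.

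Endogenous and tagged AEBP2 differed at the start site base itself. A peak contained it at 6 of 6 members in AEBP2 replicate 1 (6.43% of all genes), AEBP2 replicate 2 (17.1%), H3K27me3 replicate 1 (13.4%) and H3K27me3 replicate 2 (11.4%). FS2-AEBP2 peaks contained it at 3 of 6 (3.24% of all genes), namely Irx2, Irx3 and Irx5. This difference was not particular to the members. Over all protein-coding genes with an FS2-AEBP2 peak within 1 kb, 725 of 1460 had the start site inside a peak. The counts were 1438 of 2032 in AEBP2 replicate 1 and 3817 of 4983 in replicate 2. At Irx1 the FS2-AEBP2 peak left the first 185 bp after the start site uncovered, and at Irx6 the first 5 bp. At Irx4 the start site lay in a gap of 572 bp between a peak of 817 bp and a peak of 4488 bp. The map of peaks around the start sites shows these gaps. It also shows inner blocks, which the caller marked as narrower stretches of a broad peak. Endogenous AEBP2 peaks ran unbroken over the start sites but were split elsewhere. Around Irx2, for example, there were 4 in replicate 1 and 2 in replicate 2. Their inner blocks missed the start site at Irx1 and Irx3 in replicate 1 and at Irx6 in replicate 2.

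**Figure D1:**
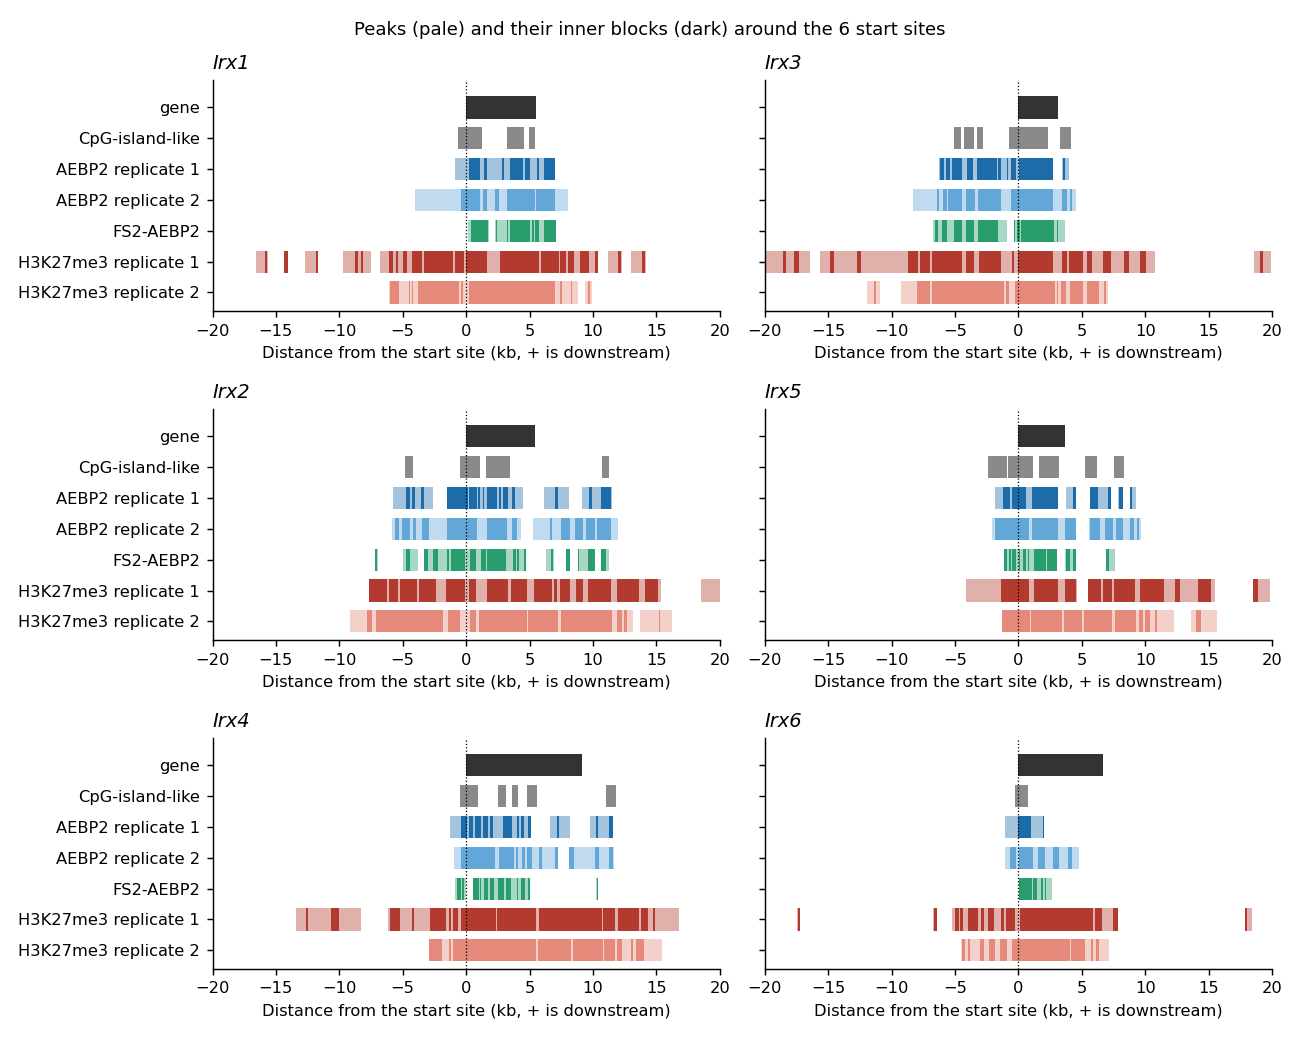
Peaks of the 5 lists (pale bars) with their inner blocks (dark bars), the gene and CpG-island-like regions, drawn by distance in kb from the start site of each of the 6 genes in the direction of transcription. H3K27me3 bars cover each whole gene, AEBP2 bars lie largely within them (at Irx5 both AEBP2 replicates begin upstream of the H3K27me3 replicate 2 bar), and the FS2-AEBP2 bars leave the start sites of Irx1, Irx4 and Irx6 uncovered.

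Irx1, a gene of nephron and neural patterning at chr13:72095680-72101171 on the minus strand, carried AEBP2 peaks of 7901 bp in replicate 1 and 12048 bp in replicate 2. They scored above 94.9% and 97.1% of the peaks of their lists, where the score is a whole number of unstated scale that ranks peaks within a list. They were the longest and the highest-scoring AEBP2 peaks of the chromosome 13 cluster in both replicates. The FS2-AEBP2 peak near its start site had 1643 bp and scored above 89.7% of its list. The H3K27me3 peaks had 17209 bp and 14934 bp and ranked above 88% and 97.1% by score.

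Irx2, expressed in the developing brain and heart, spans chr13:72766245-72771644 on the plus strand. Its AEBP2 peaks had 5973 bp and 10196 bp and scored above 90.9% and 93.1% of their lists. It held the longest and highest-scoring FS2-AEBP2 peak of its cluster, with 8048 bp and a score above 98.1% of the list. Its H3K27me3 peaks, of 22999 bp and 22326 bp, were the longest of that cluster in both replicates.

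Irx4, known for ventricular identity in the heart, spans chr13:73397945-73407068 on the plus strand and is the longest member at 9124 bp. The replicates ranked its AEBP2 differently, with a peak of 6419 bp above 47.2% of replicate 1 by score and one of 8209 bp above 88.4% of replicate 2. Its FS2-AEBP2 peaks ranked above 9.36% and 79.3% of the list. Its H3K27me3 peaks, of 22997 bp and 18401 bp, had the highest scores of the chromosome 13 cluster, above 95.5% and 99.4%.

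Irx3, a gene of neural tube patterning and cardiac conduction, spans chr8:94322428-94325553 on the minus strand and is the shortest member at 3126 bp. Its AEBP2 peaks had 8997 bp and 12824 bp, the longest of the chromosome 8 cluster, and scored above 82.6% and 97.4% of their lists. Of its 2 FS2-AEBP2 peaks, the one over the start site had 4027 bp and a score of 93, above 99.4% of the list, and the one upstream had 5860 bp and ranked above 88.8%. The H3K27me3 peaks had 26441 bp and 16347 bp and scored above 99.1% and 99.7%, and they were the longest of the chromosome 8 cluster in both replicates.

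Irx5, which acts in cardiac repolarisation and in retinal bipolar cells, spans chr8:94881695-94885351 on the plus strand. Its AEBP2 peaks had the highest scores of the chromosome 8 cluster, 32 in replicate 1 and 56 in replicate 2, above 97% and 98.7% of the lists, over 4964 bp and 6688 bp. The FS2-AEBP2 peak of 4207 bp scored above 97.2%. H3K27me3 peaks had 8730 bp and 13552 bp and scored above 99.4% and 98.3%. All 5 lists therefore ranked Irx5 high by score, although its H3K27me3 peak in replicate 1 was the shortest among the members. A further H3K27me3 peak of replicate 1, of 9980 bp, lay 1853 bp downstream of the gene. It scored 47, above 99.9% of the list and the highest of the chromosome 8 cluster in that replicate.

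Irx6, also expressed in retinal bipolar cells, spans chr8:95198188-95204855 on the plus strand. Its AEBP2 peaks were the shortest among the members, with 3087 bp in replicate 1 and 5778 bp in replicate 2, and scored above 62.5% and 93.5% of the lists. The FS2-AEBP2 peak of 2635 bp scored above 69.3%. Its H3K27me3 peaks of 13124 bp and 11701 bp scored above 99.4% and 99%, so the low AEBP2 rank in replicate 1 stood beside a high H3K27me3 rank.

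**Figure D2:**
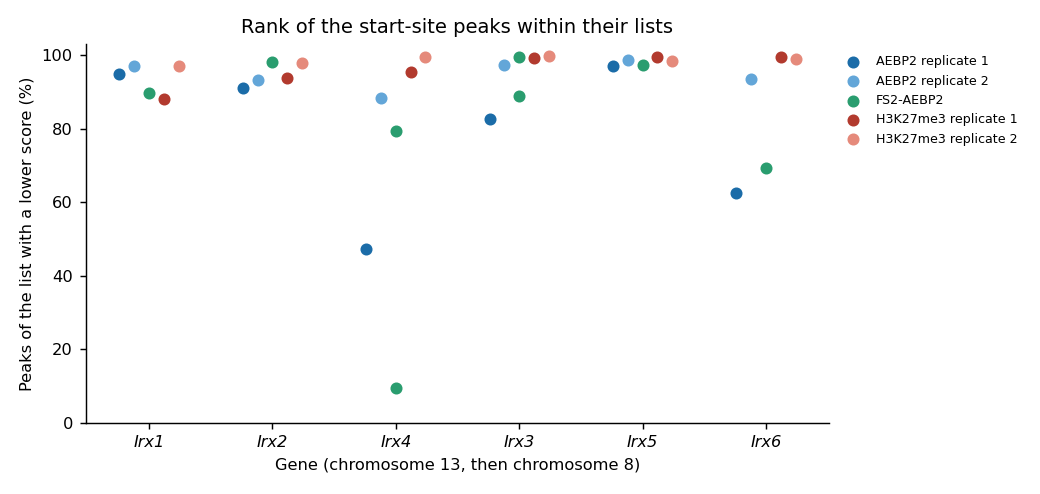
Percentage of the peaks of a list that score lower than each start-site peak, for the 6 genes and 5 lists (1 point per peak, so Irx3 and Irx4 have 2 FS2-AEBP2 points). H3K27me3 points lie between 88% and 99.7%, while AEBP2 replicate 1 falls to 47.2% at Irx4 and FS2-AEBP2 to 9.36%.

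Coverage of the 20 kb centred on the start site set Irx6 and Irx2 at opposite ends. At Irx6, peaks covered 15.4% in AEBP2 replicate 1, 28.9% in replicate 2 and 13.2% for FS2-AEBP2. At Irx2 they covered 59.8%, 74.8% and 58%. These were the lowest and the highest values of the 6 members in each of the 3 AEBP2 lists. The other members lay between 39.5% and 48% in replicate 1, between 50.4% and 64.1% in replicate 2 and between 26.5% and 49.4% for FS2-AEBP2. For H3K27me3 the lowest member was Irx5, at 66.1% and 56.5%, with Irx6 next at 67% and 58.5%. The highest were Irx3, fully covered in replicate 1, and Irx2 at 95.6% in replicate 2. Among the 3349 genes with H3K27me3 at the start site in both replicates, the median coverage was 0% in AEBP2 replicate 1, 6.81% in AEBP2 replicate 2, and 30.7% and 26.5% in the H3K27me3 replicates. Even Irx6 had more AEBP2 coverage than 86.3% of these genes in replicate 1, 89.3% in replicate 2 and 84.8% for FS2-AEBP2. Many of these genes had no AEBP2 coverage, as the median of 0% in replicate 1 shows. The ranks therefore do not compare Irx6 with AEBP2-bound genes alone.

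**Figure D3:**
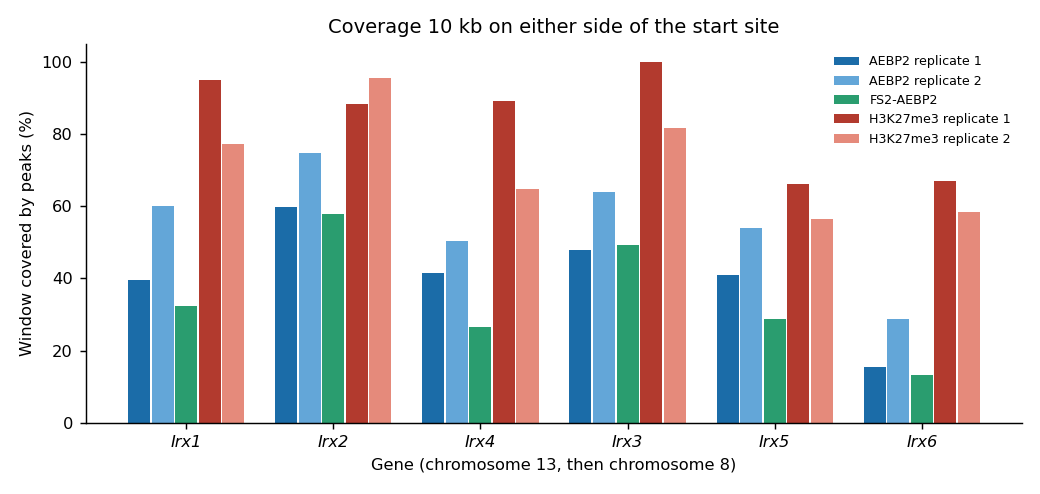
Percentage of the 20 kb around each start site that peaks of each list cover (1 bar per gene and list, with no error bar because each list is 1 sample). Irx6 has the lowest bar in the 3 AEBP2 lists, at 15.4%, 28.9% and 13.2%, and Irx2 the highest.

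H3K27me3 covered the whole gene body of all 6 members in both replicates. AEBP2 covered from 30.7% of the gene body at Irx6 to all of it at Irx1 in replicate 1, and from 71.3% at Irx6 to all of it at Irx1, Irx3 and Irx5 in replicate 2. Overlapping H3K27me3 peaks of the 2 replicates were merged into regions found in both, which run over all bases that either replicate covers. The 6 genes lay in 6 of these 5801 regions, whose median length was 5119 bp. The regions had 13124 bp at Irx6, 17209 bp at Irx1, 19831 bp at Irx5, 22997 bp at Irx4, 25332 bp at Irx2 and 26441 bp at Irx3, so that even the shortest was longer than 91% of all regions. AEBP2 covered 23.5% of the Irx6 region in replicate 1 and 44% in replicate 2. The highest shares were 53% in replicate 1 at Irx2 and 70% in replicate 2 at Irx1. FS2-AEBP2 covered from 20.1% at Irx6 to 49% at Irx2. The Irx6 region held 1 CpG-island-like region, and the other 5 held 3 to 5 each.

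The chromosome 13 cluster spans 1311389 bp, with 665073 bp between Irx1 and Irx2 and 626300 bp between Irx2 and Irx4. The chromosome 8 cluster spans 882428 bp, with gaps of 556141 bp and 312836 bp. AEBP2 peaks covered 2.12% and 2.72% of the chromosome 13 cluster in replicates 1 and 2, and 2.53% and 3.5% of the chromosome 8 cluster. FS2-AEBP2 covered 1.73% and 2.08% of the clusters. H3K27me3 covered 8.18% and 5.34% of the former in replicates 1 and 2, and 15.6% and 5.55% of the latter. Over all chromosomes analysed, AEBP2 peaks covered 0.215% and 0.414% in replicates 1 and 2, and FS2-AEBP2 peaks covered 0.207%. The shares for H3K27me3 were 1.83% and 1.21% in replicates 1 and 2. Each list thus covered a larger share of both clusters than of all chromosomes, a difference that was not tested. Most AEBP2-covered bases lay in peaks that touched a gene or its start-site window, since peaks between the genes held from 0% to 26.8% of them over the 3 AEBP2 lists and 2 clusters. For H3K27me3 replicate 1, peaks between the genes held the larger part, 52.9% of its covered bases on chromosome 13 and 71.3% on chromosome 8, against 34.4% and 24.2% in replicate 2.

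The H3K27me3 replicates thus differed most in the chromosome 8 cluster, where replicate 1 covered 2.81 times as many bases as replicate 2, against 1.53 times in the chromosome 13 cluster, 1.51 times over chromosomes 1 to 19, X and Y, and 1.16 times in the 20 kb around the 6 start sites. The difference lay between the genes, with 34 peaks in replicate 1 and 6 in replicate 2 on chromosome 8, and 24 and 12 on chromosome 13. Overlapping peaks between the genes formed 69 regions. Counting only peaks that touch no gene, 46 regions were found in H3K27me3 replicate 1 only and 6 in replicate 2 only. Of the latter, chr13:72779965-72782449 and chr8:94336510-94337503 overlapped replicate 1 peaks that touch Irx2 and Irx3. The number of reads behind each list is unknown, and its part in this difference was not tested.

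The AEBP2-covered bases of the clusters were then compared with H3K27me3. In the chromosome 13 cluster, all AEBP2-covered bases of both replicates and 99.5% of those of FS2-AEBP2 fell in the merged H3K27me3 regions. In the chromosome 8 cluster all AEBP2-covered bases of the 3 lists did. Taking only bases that both H3K27me3 replicates covered, the share was 97.6% and 97.3% for AEBP2 replicates 1 and 2 on chromosome 8. Neither these shares nor the peak counts that follow were computed over all chromosomes. The paper reports that most AEBP2-bound sites also carry H3K27me3, so such overlap is not shown to be particular to the clusters. The 7 and 5 AEBP2 peaks of the chromosome 13 cluster all overlapped the H3K27me3 regions of the 3 genes, and of the 12 FS2-AEBP2 peaks 1 did not, a peak of 112 bp. On chromosome 8, 1 of 8 AEBP2 peaks in replicate 1, 2 of 6 in replicate 2 and 1 of 7 FS2-AEBP2 peaks lay outside the regions of the genes.

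These 4 peaks on chromosome 8 shared a single region between Irx5 and Irx6, chr8:94975314-94986828, which began 93619 bp downstream of the start site of Irx5 and had peaks of all 5 lists. AEBP2 had a peak of 1989 bp there in replicate 1 and 2 peaks in replicate 2, the longer of 2705 bp. FS2-AEBP2 had 562 bp with a score above 4.13% of its list, and H3K27me3 had 11462 bp and 6112 bp with scores above 95% and 93.3%. No annotated gene overlapped it or started within 1 kb. It held a CpG-island-like region of 1490 bp with 112 CpGs, whose middle 250 bases are shown because it is the only such region with AEBP2 outside the H3K27me3 regions of the genes. It was picked after its peaks were seen and is printed from mm9, plus strand, with CpGs in capitals.
Irx5 to Irx6 (chr8:94984450-94984699): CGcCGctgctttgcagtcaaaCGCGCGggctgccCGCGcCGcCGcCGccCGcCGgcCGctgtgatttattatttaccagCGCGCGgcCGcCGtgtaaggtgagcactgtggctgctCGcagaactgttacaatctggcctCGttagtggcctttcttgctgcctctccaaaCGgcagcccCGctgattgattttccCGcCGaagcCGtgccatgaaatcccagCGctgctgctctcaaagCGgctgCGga

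Most CpG-island-like regions of the clusters had AEBP2. Of the 25 such regions in the 2 clusters, 22 had an AEBP2 peak in replicate 1, against 15.2% of the 20696 in the genome, 22 in replicate 2 (31.9%) and 21 with FS2-AEBP2 (12.4%). The same 3 regions had no peak of any of the 5 lists, and they lay apart from the genes at chr13:72173071-72173780, chr13:72298271-72298770 and chr8:95115311-95116060. Of the 8 regions between the genes with a peak of any AEBP2 list, 4 overlapped a CpG-island-like region. Among the others, chr13:72772423-72774427 and chr8:94885391-94886246 lay within AEBP2 replicate 2 peaks that touch Irx2 and Irx5 and overlap CpG-island-like regions. The rest held AEBP2 only as FS2-AEBP2 peaks, of 112 bp and 261 bp, with scores above 26.7% and 16.9% of the list. Of the 69 regions between the genes, 9 had H3K27me3 in both replicates without any AEBP2 list. They were 2352 to 14290 bp long and lay 18524 to 283172 bp from the nearest Iroquois start site. Of these 9, 0 overlapped a CpG-island-like region, but only 4 of all 69 regions between the genes did. The share among H3K27me3 regions without AEBP2 over the genome was not computed.

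**Figure D4:**
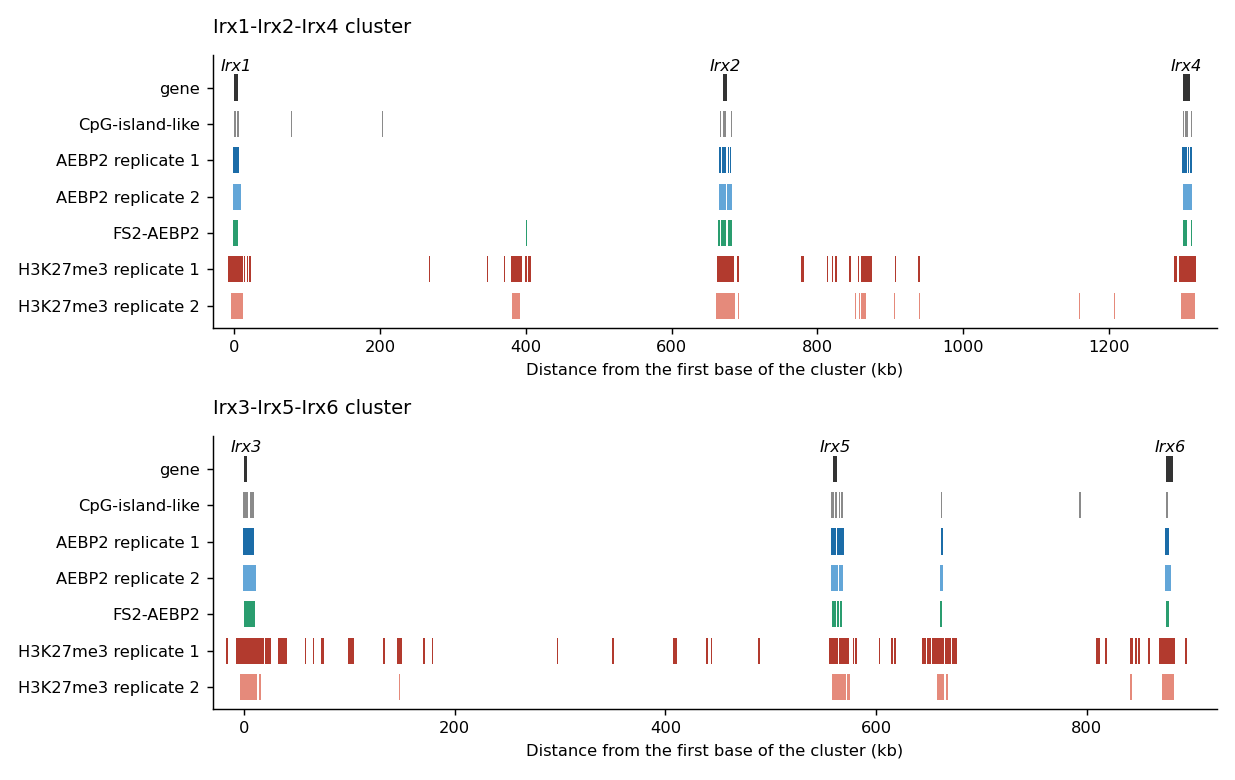
The 2 clusters drawn by distance in kb from their first base, with genes, CpG-island-like regions and the peaks of the 5 lists (bars under 1.5 kb are drawn 1.5 kb wide so that they can be seen). Bars of endogenous AEBP2 stand at the 6 genes and at 1 place between Irx5 and Irx6, FS2-AEBP2 has a further bar between Irx1 and Irx2, and H3K27me3 replicate 1 has the most bars between the genes.

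The lincRNA D230002A01Rik, which overlaps Irx3 on the opposite strand, and 4933436C20Rik, which starts close to Irx5, had peaks of all 5 lists within 1 kb of their start sites, and these cannot be separated from the peaks of Irx3 and Irx5. Rpl9-ps4 and U6, which lie between genes, had none. Of the 3 nearest protein-coding genes on each side of the clusters, 0 of 12 had AEBP2 in both replicates (8.44% of all genes), and 2 of 12, Ndufs6 and Aktip, had it in replicate 2 only (22.3% of all genes in that list). Adamts16 and Mmp2, which encode extracellular proteases, had H3K27me3 in both replicates without AEBP2, and 8 of the 12 were in no list, as were 68.5% of all protein-coding genes. These counts are close to those of all genes.

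Among the 12 other TALE-class homeobox genes, 4 had start-site peaks of all 5 lists, namely the Hox cofactor genes Meis1 and Meis2, Pknox2, and the tendon regulator Mkx. Meis3 had H3K27me3 alone, in both replicates, Pbx3 had AEBP2 in replicate 2 alone, and 6 were in no list. Of 6 genes expressed in mESCs, 5 (Pou5f1, Nanog, Sox2, Esrrb and Zfp42) had no start-site peak of any list, which is little evidence on the cells because 68.5% of all genes had none either. Esrrb had peaks of all 5 lists over its gene body, and Klf4 had start-site peaks of FS2-AEBP2 and of H3K27me3 replicate 1. Absence of a peak means only that the signal did not pass the threshold of the authors.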

How the data were processed

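Peaks were analysed from 5 wild-type samples. The authors called peaks in each sample and deposited, per peak, its position, a whole-number score and inner blocks, the narrower enriched stretches. The deposited score has no stated scale. The submitters' processing notes name Bowtie, SAMtools, Picard, MACS2 2.0.10.2 and mm9. Thresholds, control libraries and the treatment of duplicates are not given in the sources used here. The lists hold no read counts, so depth is unknown. The only interval computed was a binomial one, used as a limit for FS2-AEBP2 percentages under the alternatives.

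Peaks on sequences other than chromosomes 1 to 19, X and Y were dropped (2 in AEBP2 replicate 1, 13 in H3K27me3 replicate 2). The lists then held 2877, 6779, 2884, 14112 and 9275 peaks (AEBP2 replicates 1 and 2, FS2-AEBP2, H3K27me3 replicates 1 and 2). An overlap needed 1 bp. Genes came from GENCODE vM1 and sequence from the matching NCBIM37 (mm9) genome, with CpG-island windows moved in steps of 10 bp. Overlap functions were tested on simulated peaks. Named genes were the 6 members, 12 TALE genes, the 3 nearest genes on each side, genes inside the clusters and 6 pluripotency genes. Members, lists and gene sets were chosen with earlier results of these data known. Alternatives were other windows, scores at or above the list median, joining within 1 kb, leaving out a replicate and looser CpG islands. Another required that peaks cover at least 50% of the gene body. Restriction to inner blocks and to bases covered by both H3K27me3 replicates was added after seeing the data. Python 3.11.15, numpy 2.4.6, pandas 2.3.3, scipy 1.17.1 and matplotlib 3.10.9 were used.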

Additional observations from a re-analysis of the deposited data

How the results depend on the processing

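Counts, percentages of a cluster covered and shares of AEBP2 inside H3K27me3 were each recomputed under the alternatives set for them. Of 128 recomputed values, 95 stayed within the set limits (1.5 times for counts, the spread between replicates or, for FS2-AEBP2, a binomial interval for percentages) and 33 moved. These limits differ in width, so the split does not measure robustness. The binomial interval treats each base as a trial, so a change from 1.73% to 1.62% counted as moved. H3K27me3 replicates covering 15.6% and 5.55% of the chromosome 8 cluster set a wide limit. Where both AEBP2 replicates gave 100%, any change counted as moved. All 6 members kept their start-site peaks in every list with windows of 2.5 kb and 0.5 kb and with inner blocks. FS2-AEBP2 peaks contained the start site of 3 members. With scores at or above the list median, peaks between the genes of the chromosome 13 cluster numbered 1 in AEBP2 replicate 1, 4 for FS2-AEBP2, and 13 and 4 in the H3K27me3 replicates, and on chromosome 8 they numbered 2, 1, 21 and 2. Coverage then was 1.67% in AEBP2 replicate 1 and 1.62% for FS2-AEBP2 on chromosome 13, and 1.93% for FS2-AEBP2 on chromosome 8. Joining peaks within 1 kb left 3 FS2-AEBP2 peaks between the genes on chromosome 13, and 2 and 1 AEBP2 peaks in replicates 1 and 2 on chromosome 8. FS2-AEBP2 coverage then was 2% and 2.21%. Inner blocks alone covered 0.936%, 1.48%, 1.01%, 3.96% and 3.3% of the chromosome 13 cluster (AEBP2 replicates 1 and 2, FS2-AEBP2, H3K27me3 replicates 1 and 2), and 1.66%, 2.33%, 1.37% and 5.84% of the chromosome 8 cluster (without H3K27me3 replicate 2, which stayed within the limit). The share of AEBP2 inside H3K27me3 on chromosome 8 was 97.6% and 97.3% for replicates 1 and 2 without H3K27me3 replicate 1 or on bases of both replicates, and 97.3% for replicate 2 with the list of the same number. Leaving out each H3K27me3 replicate in turn, the shares ranged from 97.6% to 100% for AEBP2 replicate 1, from 97.3% to 100% for replicate 2, and from 99.5% to 100% for FS2-AEBP2 on chromosome 13, where the peaks of either replicate also gave 100%. No paired analysis was possible because no result came from a test in which a replicate block could be fitted. The H3K27me3 list of the same number was used only as another list to overlap. Unknown depth limits comparisons of peak numbers between lists.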

Other observations

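The far side of both clusters holds related genes, a lysophosphatidylcholine acyltransferase gene (Lpcat1 on chromosome 13, Lpcat2 on chromosome 8) and a monoamine transporter gene (the dopamine transporter Slc6a3 and the noradrenaline transporter Slc6a2). They were picked after their values were seen. Lpcat1 had no start-site peak in any of the 5 lists, whereas Lpcat2 had AEBP2 in replicate 2 and H3K27me3 in both replicates. Slc6a2 had start-site peaks of all 5 lists, with AEBP2 peaks of 1642 bp and 1961 bp and H3K27me3 peaks of 13337 bp and 9289 bp. Slc6a3 had H3K27me3 peaks of 7435 bp and 6127 bp and an AEBP2 peak in replicate 1 only, of 623 bp and with the lowest score of that list, 1.

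Fto, the neighbour of Irx3, had 1 peak in its gene body, of FS2-AEBP2, with 128 bp and a score above 9.36% of its list.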
